A study of Homo sapiens with 18 samples.

Results

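Withaferin A (WA) and withanone (WN), a pair of related steroidal lactones from the medicinal plant Withania somnifera, were compared at the same dose and time in the human neuroblastoma line IMR-32. The comparison was chosen by the sample titles: 3 arrays of IMR-32 cells given 1 µM WA for 24 h against 3 arrays of IMR-32 cells given 1 µM WN for 24 h, which are 6 of the 18 arrays of the series. The other 12 arrays hold IMR-32 cells given the solvent DMSO for 24 h (3 arrays) and SK-N-SH neuroblastoma cells given DMSO, WA or WN in the same way (9 arrays). Every group has 3 biological replicates per the labels, so the p-values below measure the spread between such replicates. That spread was shared by the 6 groups of both lines, so the errors given for IMR-32 also hold the scatter of the SK-N-SH arrays. The median standard deviation of a gene was 0.14 to 0.17 (log2) in the IMR-32 groups and 0.18 to 0.25 in the SK-N-SH groups. All cells of both lines were grown in RPMI medium with fetal calf serum, and total RNA was hybridised to Illumina HumanHT-12 v4 beadchips. IMR-32 is an established line known for its MYCN amplification, and 1 line at 1 dose and 1 time point stands for each compound here. The samples are bulk RNA, in which fewer cells of a type and less RNA per cell cannot be told apart. The series concerns ferroptosis, a cell death that runs through iron-dependent oxidation of membrane lipids.

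WA and WN have the same steroid and lactone skeleton and are known to differ in where the epoxide and the hydroxyl groups sit. Electrophilic compounds are known to modify cysteines of KEAP1, the adaptor that marks the transcription factor NRF2 for degradation. Freed NRF2 then switches on genes for quinone reduction, glutathione synthesis, NADPH supply and heme breakdown through the antioxidant response element. Misfolded protein activates HSF1 and the heat shock genes, and phosphorylation of eIF2α favours translation of ATF4, whose targets include DDIT3 and the cystine transporter gene SLC7A11. Neuroblasts of the adrenergic type are held by a set of transcription factors that includes HAND2, GATA3, ISL1 and, in amplified lines, MYCN.

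IMR-32 arrays carried the adrenergic type that the line is known for. Of 28 adrenergic neuroblast markers tested 23 were detected on all 9 IMR-32 arrays, with HAND2 between 11.32 and 11.97, GATA3 between 10.16 and 10.87 and MYCN between 14.30 and 14.77 on the log2 level scale. The mesenchymal genes FN1 and PRRX1 lay between 4.35 and 4.90 on these arrays, which is about the level of undetected probes. Of the Schwann cell markers 4 of 14 and of the immune cell markers 4 of 15 had a probe that passed the detection filter, and 1 and 2 of them were detected on all 9 IMR-32 arrays. CD68, a lysosomal protein of macrophages and other cells, lay between 7.39 and 8.56, whereas S100B, SOX10, PTPRC and CD3E had no such probe. The summed level of the 29 mesenchymal markers ranged from 14.65 to 14.99 with WN, from 14.86 to 15.26 with WA and from 14.48 to 14.86 with DMSO. At the top of the scale the WN arrays of IMR-32 were dim, where the highest raw signal lay between 19100.5 and 20824.1. The brightest probe of each other IMR-32 array lay between 33925.7 and 37328.5. Since all 6 WN arrays of the series share this, array brightness and the WN treatment cannot be told apart in what follows.

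Of 12975 genes tested 3083 (23.8%) differed between WA and WN in IMR-32 at an adjusted p under 0.05 (limma, Benjamini-Hochberg), 1629 of them (12.6%) higher and 1454 (11.2%) lower with WA. Here "called", "higher" and "lower" mean past that threshold, and differences are WA minus WN on the log2 scale ± the standard error of the fit, with n = 3 arrays per group. The difference was at least 2-fold for 369 genes higher (2.84%) and 305 lower with WA (2.35%), 674 in all (5.19%). Of all genes, 43.4% had the WA arrays fully above or below the WN arrays, and 31.5% had the WN arrays fully above or below the DMSO arrays. Statements that these groups do not overlap are to be read against those shares. The shares for WA against DMSO and for all 3 groups apart are not given here. The count rested on single arrays to a degree: it was 1998 without WA replicate 2 and between 2178 and 2670 without any other WA or WN array. A fit of the 9 IMR-32 arrays alone called 4124 genes. Against DMSO, 1883 genes (14.5%) were called with WA, 8.02% of all genes being higher and 6.50% lower, and 599 (4.62%) with WN, 2.40% higher and 2.21% lower, and the latter became 987 when the replicate number was held as a block. Leaving out 1 array gave 1132 to 1601 calls for WA against DMSO, fewest without WA replicate 1, and 132 to 515 for WN against DMSO, fewest without DMSO replicate 1 and most without WN replicate 3. These 3 comparisons share arrays and are therefore set side by side only. For 9907 genes (76.4%) the 95% interval of WA minus WN lay within 2-fold either way, and 8741 of these were not called. For another 1151 genes that were not called, the interval reached beyond 2-fold. Under median scaling in place of quantile normalization the median of all genes moved from 0.01 to -0.16, and the calls split into 1209 higher and 2269 lower, so directions are relative to the median gene.

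**Figure D1:**
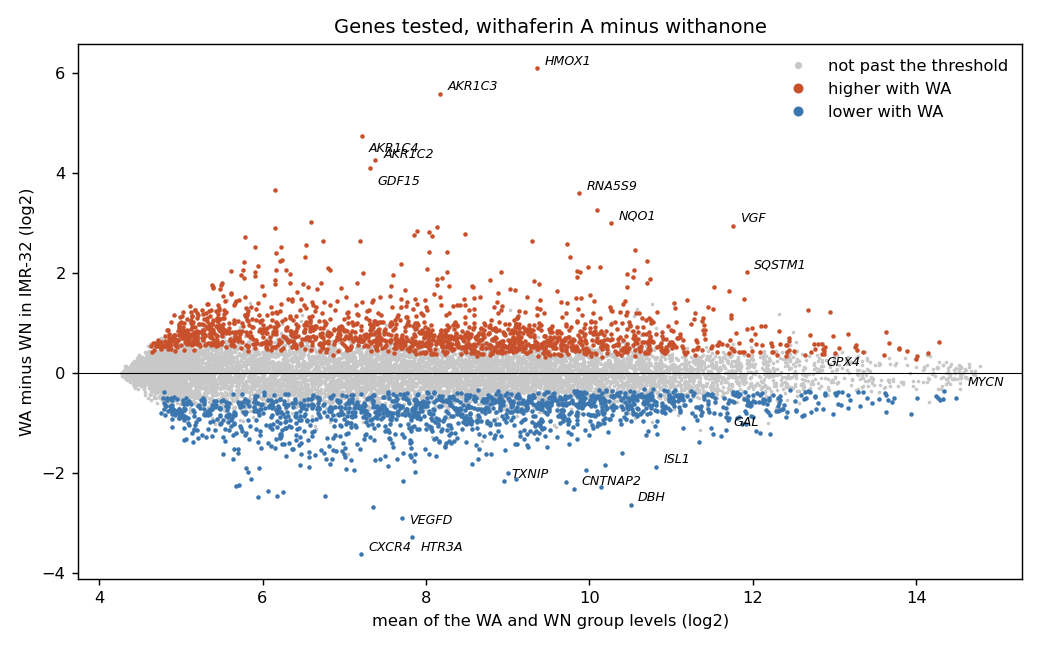
Difference between withaferin A and withanone in IMR-32 (vertical axis, log2) against the mean of both group levels (horizontal axis, log2) for the 12975 genes tested. Each point is 1 gene, coloured where the adjusted p was under 0.05, and HMOX1 (6.10) and CXCR4 (-3.62) mark the extremes.

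The widest difference between the compounds was in heme breakdown. HMOX1, which encodes the inducible enzyme that opens the heme ring and frees iron, stood at 12.79, 12.65 and 11.81 on the WA arrays and at 6.11, 6.66 and 6.17 on the WN arrays. The DMSO arrays were at 6.31, 6.78 and 5.95. Every WA array lay far above every other array, while WN and DMSO arrays overlapped. HMOX1 was 68.8-fold higher with WA than with WN (6.10 ± 0.32, adjusted p = 2.9e-09), and its WN minus DMSO difference was -0.04 (adjusted p = 0.98). BLVRB, a biliverdin reductase gene, was at 8.26, 8.17 and 7.91 with WA and at 5.12, 5.15 and 4.97 with WN, where it was detected on 1 of 3 arrays. The groups did not overlap, and the difference was 3.03 ± 0.24 (adjusted p = 6.4e-07). BLVRA, another biliverdin reductase gene, differed by 0.12 and was not called in a fit of the 9 IMR-32 arrays alone (adjusted p = 0.49).

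Of 24 heme and iron genes tested 7 were higher and 2 lower with WA, with a median difference of 0.18 against 0.01 over all genes. Calls made up 37.5% of the list, beside 23.8% of all genes. Beside HMOX1 and BLVRB, the higher genes were SLC48A1, a heme transporter (0.79 ± 0.20), ALAS1, which starts heme synthesis (0.73 ± 0.22), ALAD, ISCU and FTL, the ferritin light chain. SLC48A1 was not called without WA replicate 1 (0.63) or WN replicate 3 (0.57), and its other probe gave 0.15. ALAS1 was not called without WA replicate 2 or 3 or without WN replicate 1 or 2, at 0.60 to 0.76, nor under median scaling (0.56). FTL stood at 14.46, 14.56 and 14.79 with WA and at 14.13, 14.11 and 13.65 with WN (0.64 ± 0.14, adjusted p = 0.0039). The lower genes were FLVCR1, a heme exporter (-0.54 ± 0.13), and PCBP2, an RNA-binding protein that also carries iron (-0.58 ± 0.13). TFRC, the transferrin receptor, was at 12.04, 12.22 and 12.22 with WA and at 12.31, 12.38 and 12.57 with WN, so that the WA arrays were all lower. The interval of the difference ran from -0.58 to 0.06, within 2-fold either way. FTH1, the heavy chain of ferritin, was not analysed here.

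Among the 27 lists described here, the NRF2 targets had the largest share of calls. Of 27 tested 21 were higher with WA than with WN and 1, TALDO1 of the pentose phosphate path, was lower (-0.35 ± 0.11). The median difference was 0.92, and 81.5% of the list was called, beside 23.8% of all genes. Against DMSO 19 were higher with WA and 0 with WN, where the replicate block gave 1, ME1. The median member lay 1.15, 0.99 and 0.82 above its DMSO mean on the WA arrays and 0.07 and 0.18 above and 0.15 below it on the WN arrays, which overlapped the DMSO arrays. HMOX1, BLVRB, SLC48A1 and FTL stand in both this list and the previous one. Of the 34 genes on the NRF2 list, tested or not, 19 stand in some other list.

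The aldo-keto reductases of the AKR1C cluster, which reduce steroids and reactive carbonyls, followed HMOX1 in size. AKR1C3 stood at 11.12, 10.96 and 10.84 with WA, against 5.41, 5.89 and 4.84 with WN, where 2 of 3 arrays detected it. AKR1C2 stood at 9.72, 9.53 and 9.29 with WA, against 5.10, 5.75 and 4.86 with WN, detected on 1 of 3. All WA arrays lay above all WN and DMSO arrays in both genes. The differences were 5.59 ± 0.37 for AKR1C3 (adjusted p = 1.1e-07) and 4.28 ± 0.31 for AKR1C2 (adjusted p = 2.5e-07). For AKR1C4, which no WN array detected, WA exceeded WN at least 21.1-fold (adjusted p = 2.0e-08). Such bounds set the mean of the brighter group against, on each array of the dimmer group, the higher of the lowest level seen for a detected probe and the probe's own level. The transcripts of this cluster are nearly identical, so a probe may read more than 1 of them, and values of single members are uncertain.

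NQO1, the quinone reductase most used as an NRF2 readout, stood at 11.93, 11.89 and 11.50 with WA and at 8.77, 9.29 and 8.22 with WN. The groups were fully apart, by 3.01 ± 0.24 (adjusted p = 6.4e-07), and the gene's other probe gave 1.12. EPHX1, an epoxide hydrolase, differed by 1.54 ± 0.19 and SQSTM1, the autophagy receptor that also binds KEAP1, by 2.03 ± 0.23. Neither regulator of the path was called. NFE2L2, which encodes NRF2, was at 10.39, 10.57 and 10.37 with WA and at 10.52, 10.49 and 10.42 with WN, with overlapping groups and an interval from -0.47 to 0.41. KEAP1 differed by 0.29 (interval 0.01 to 0.57, adjusted p = 0.13), with 0.48 at its other probe, and it was called at 0.38 when the probes of a gene were averaged and at 0.32 with array weights.

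**Figure D2:**
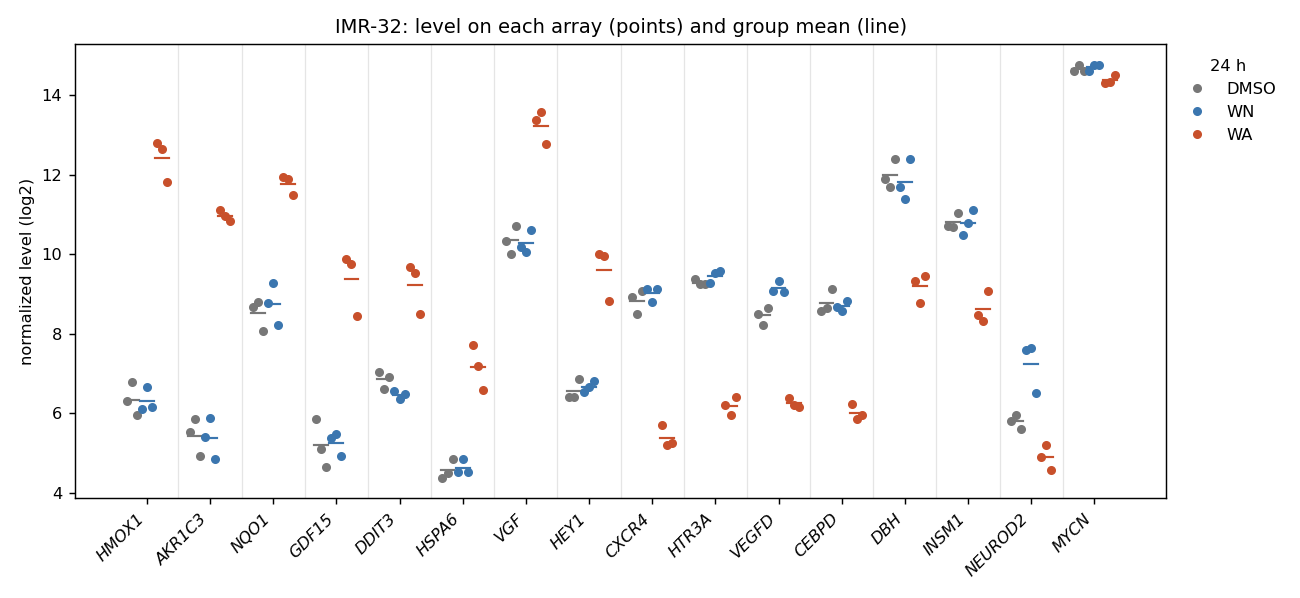
Normalized levels (vertical axis, log2) of 16 genes on the 9 IMR-32 arrays after 24 h, with 3 points per group and a line at the group mean. WA arrays stand far from WN and DMSO arrays in most of the genes shown and just below them in MYCN, and in NEUROD2 and VEGFD the WN arrays also stand above the DMSO arrays.

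Genes of glutathione and thioredoxin metabolism were called in both directions. Of 34 tested 14 were higher and 3 lower with WA, with a median of 0.36, and none was called with WN against DMSO. Calls between WA and WN made up 50% of the list, beside 23.8% of all genes. GPX3, an extracellular glutathione peroxidase, stood at 9.64, 9.89 and 10.07 with WA and at 7.06, 7.02 and 7.16 with WN (2.79 ± 0.14, adjusted p = 2.3e-09). SRXN1, which repairs oxidised peroxiredoxins, was 2.84-fold higher, GCLM, which encodes the regulatory partner of the ligase that starts glutathione synthesis, differed by 1.22 ± 0.25 and TXNRD1, thioredoxin reductase, by 1.21 ± 0.21. The catalytic ligase subunit GCLC differed by 0.57 ± 0.19 (adjusted p = 0.040). In the other direction, TXNIP, which binds and inhibits thioredoxin, was at 7.99, 7.55 and 8.07 with WA and at 10.03, 9.96 and 10.11 with WN. All 3 WA arrays lay below all other IMR-32 arrays, by -2.16 ± 0.22 against WN (adjusted p = 7.0e-06). The mitochondrial peroxiredoxin gene PRDX3 (-0.58 ± 0.11) and PRDX4 of the secretory path (-0.41 ± 0.14) were also lower.

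NADPH-producing enzymes were called in both directions. Of 14 tested 2 were higher with WA, namely ME1, malic enzyme (1.67 ± 0.17), and PGD of the pentose phosphate path (0.85 ± 0.14). Lower were TALDO1, MTHFD1, a folate enzyme (-1.48 ± 0.21), and NNT, the mitochondrial transhydrogenase (-0.97 ± 0.15). The other probe of NNT gave -0.26. The median of the list was -0.15, and 35.7% of it was called, beside 23.8% of all genes.

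Promoter windows of RefSeq (GRCh38.p14, from upstream of the start of a gene to just inside it) were searched for the core of the antioxidant response element, TGACNNNGC, on both strands. Such a match stood in 13.3% of 35116 windows. Counted by gene, with a match in any window of the gene, it stood in 19.4% of tested genes that had a window. Among NRF2-list members that had a window it stood in 7 of 21, 6 of them among 17 that were higher with WA. The windows of ME1 and GCLM are shown because both genes are members that were higher with WA and hold the core. Capitals mark the matches, 2 in ME1 and 1 in GCLM, the latter at -34 counted from the start of the gene.
ME1, chr6:83431002-83431301, minus strand: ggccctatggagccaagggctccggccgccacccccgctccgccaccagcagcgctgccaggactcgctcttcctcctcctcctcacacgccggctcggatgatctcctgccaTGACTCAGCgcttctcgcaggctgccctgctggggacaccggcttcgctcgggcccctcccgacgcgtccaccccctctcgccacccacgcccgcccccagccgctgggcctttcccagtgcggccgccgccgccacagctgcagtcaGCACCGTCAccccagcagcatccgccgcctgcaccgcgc
GCLM, chr1:93909381-93909680, minus strand: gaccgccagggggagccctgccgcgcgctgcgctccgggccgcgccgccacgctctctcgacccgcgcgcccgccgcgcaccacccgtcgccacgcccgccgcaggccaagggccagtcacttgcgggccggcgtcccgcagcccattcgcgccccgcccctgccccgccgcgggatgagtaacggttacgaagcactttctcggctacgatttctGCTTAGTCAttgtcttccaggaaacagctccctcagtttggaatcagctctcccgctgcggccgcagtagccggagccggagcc
Both genes had a match within the window on the strand opposite to transcription, and ME1 had a further one on the strand of transcription. ME1 was at 9.95, 9.94 and 9.88 with WA, at 8.41, 8.32 and 8.03 with WN and at 7.71, 7.67 and 7.68 with DMSO, so that the 3 groups did not overlap. Its WN minus DMSO difference of 0.57 missed the threshold (adjusted p = 0.068) and passed it with the replicate block (adjusted p = 0.048). GCLM was at 11.29, 11.11 and 10.80 with WA, at 9.84, 9.96 and 9.75 with WN and at 9.35, 9.71 and 9.33 with DMSO. WN arrays of GCLM lay between the other groups, and the WN minus DMSO difference was 0.38 (adjusted p = 0.43).

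Of 20 ferroptosis regulators tested 9 were higher and none lower with WA than with WN, with a median of 0.28. The 9 are 45% of the list, beside 23.8% of all genes called. SLC7A11 and SLC3A2 encode the subunits of the cystine-glutamate exchanger. SLC7A11 was at 6.59, 6.55 and 5.67 with WA and was not detected on any WN or DMSO array, so that WA exceeded WN at least 2.11-fold (adjusted p = 9.1e-04). SLC3A2 was at 11.28, 11.21 and 11.01 with WA against 9.62, 9.72 and 9.80 with WN (1.45 ± 0.24, adjusted p = 4.6e-04), and the groups did not overlap. AIFM2, known as FSP1, which reduces coenzyme Q in membranes and opposes lipid peroxidation, was at 6.87, 6.74 and 6.56 with WA against 4.29, 4.69 and 5.28 with WN, where 1 of 3 arrays detected it (1.97 ± 0.22). Among genes that favour lipid oxidation, CYB5R1 (1.51 ± 0.23) and POR (0.71 ± 0.15), both electron donors, and SAT1, a polyamine acetyltransferase (1.32 ± 0.37), were higher. Known suppressors and known promoters of lipid peroxidation were thus both among the higher genes.

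ACSL4 and GPX4 gave other patterns over the 3 groups. ACSL4, which loads polyunsaturated fatty acids into membrane lipids, was at 8.02, 8.33 and 8.64 with WA, at 7.29, 7.50 and 7.79 with WN and at 8.12, 8.24 and 8.59 with DMSO. WA and DMSO arrays overlapped and the WN arrays lay below both. The WA minus WN difference was 0.81 ± 0.22 (adjusted p = 0.015), that of WA minus DMSO was 0.02 and that of WN minus DMSO was -0.79 (adjusted p = 0.052, and 0.0067 with the replicate block). The WA minus WN difference was not called without WA replicate 3 (0.65) or WN replicate 1 (0.69), and the other probe gave 0.17. GPX4, the peroxidase that clears lipid hydroperoxides, was at 13.00, 12.91 and 12.63 with WA and at 12.88, 12.92 and 12.54 with WN. These groups overlapped, and the interval of the difference, -0.22 to 0.36, lies within 2-fold either way.

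More heat shock genes were higher than lower with WA. Of 28 tested 10 were higher and 2 lower than with WN, with a median of 0.26. Calls between WA and WN made up 42.9% of the list, beside 23.8% of all genes. The median member lay 0.38, 0.35 and 0.42 above its DMSO mean on the WA arrays. HSPA6, a strictly inducible HSP70, was at 7.71, 7.20 and 6.59 with WA and was not detected on any WN or DMSO array, which makes it at least 3.94-fold higher (adjusted p = 0.0076). This call was lost without background correction (0.96, adjusted p = 0.097) and on the deposited series matrix values (1.05, adjusted p = 0.081), and the gene's other probe gave 1.12. HSPA1B, another inducible HSP70, was at 12.57, 12.67 and 12.66 with WA against 10.94, 11.10 and 11.38 with WN (1.49 ± 0.32, adjusted p = 0.0030). The groups of HSPA1B did not overlap. HSPA1A, its near-identical neighbour, was not detected on any IMR-32 array by its own probe, and whether the HSPA1B probe reads both cannot be told apart here.

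DNAJB4, an HSP40 co-chaperone (1.70 ± 0.30), ZFAND2A, an arsenite-inducible proteasome partner (1.69 ± 0.30), the small chaperone HSPB1 (1.24 ± 0.19) and the co-chaperone BAG3 (1.22 ± 0.24) were also higher. The lower genes were the mitochondrial chaperonin HSPD1 (-0.49 ± 0.11) and the constitutive HSP90AB1 (-0.38 ± 0.13). HSPD1 stood at 13.42, 13.44 and 13.58 with WA, at 13.92, 13.91 and 14.07 with WN and at 13.43, 13.59 and 13.53 with DMSO. WA and DMSO arrays thus lay side by side, and WN minus DMSO was 0.45 (adjusted p = 0.026).

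The heat shock element was taken as GAA, TTC and GAA in that order with NN between the blocks. Searched on both strands in the same RefSeq windows, it stood in 0.490% of all windows. Counted by gene, it stood in 0.504% of tested genes that had a window and in 9 of 26 members of the heat shock list. Of the 10 higher members with a window 1 held it, HSPA6, whose window is shown for that reason, with the match at -74 on the strand opposite to transcription in capitals. The search for the CHOP-ATF4 composite element TGATGNAAT gave 0.991% of all windows and 1 of 28 members of the integrated stress list.
HSPA6, chr1:161524290-161524589, plus strand: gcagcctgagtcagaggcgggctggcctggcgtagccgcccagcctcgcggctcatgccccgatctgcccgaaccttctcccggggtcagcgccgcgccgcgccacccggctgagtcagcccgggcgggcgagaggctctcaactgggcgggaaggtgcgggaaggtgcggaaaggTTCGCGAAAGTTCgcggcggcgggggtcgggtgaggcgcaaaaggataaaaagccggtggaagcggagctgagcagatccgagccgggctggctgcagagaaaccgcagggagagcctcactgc
The HSPA6 probe was above detection on WA arrays alone among the 9 IMR-32 arrays.

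The integrated stress response genes were the next group. Of 33 tested 15 were higher and none lower with WA, with a median of 0.37 (0.34 with undetected members at their bounds). The 15 are 45.5% of the list, beside 23.8% of all genes called, and 0 were called with WN against DMSO. GDF15, a secreted stress cytokine, was at 9.89, 9.75 and 8.46 with WA and at 5.38, 5.49 and 4.92 with WN, detected there on 2 of 3 arrays. WA replicate 3 was the lowest WA array and still lay above every WN and DMSO array. GDF15 differed by 4.10 ± 0.53 (adjusted p = 7.0e-05). DDIT3, which encodes the transcription factor CHOP, was at 9.67, 9.52 and 8.50 with WA against 6.57, 6.36 and 6.49 with WN (2.76 ± 0.30, adjusted p = 1.6e-05), again with WA replicate 3 lowest.

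PPP1R15A, the phosphatase subunit that reverses eIF2α phosphorylation, differed by 1.84 ± 0.33. SESN2, a sestrin that restrains mTORC1, was not detected on any WN array, and WA exceeded WN at least 2.25-fold (adjusted p = 8.0e-04). Of 18 genes of the unfolded protein response of the endoplasmic reticulum 16.7% were called, beside 23.8% of all genes: 1 was higher, SEC61B of the translocation channel (0.43 ± 0.11), and 2 were lower, PDIA6, a disulfide isomerase (-0.53 ± 0.11), and HSPA5, the chaperone BiP (-0.49 ± 0.16). SEC61B was not called without WA replicate 2 (0.36) or WN replicate 3 (0.34). HSPA5 was not called without WA replicate 2 or 3 or WN replicate 2 or 3 (-0.38 to -0.50), and the median of the list was -0.03.

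Genes of protein disposal and of the p53 path were also among the calls. Of 30 proteasome genes tested 7 were higher, led by PSMD8 (0.88 ± 0.15) and PSMD3 (0.64 ± 0.13), both subunits of the regulatory lid, and 1 was lower, the assembly chaperone gene PSMG1 (-0.77 ± 0.13). The called share was 26.7% in the proteasome list, near the 23.8% of all genes. It was 35.5% in the autophagy and lysosome list and 34.8% in the p53 list. Of 31 autophagy and lysosome genes 10 were higher and 1 lower, with 6 higher without WA replicate 1 or without WA replicate 2. Beside SQSTM1 they include TFE3, a transcription factor of lysosomal genes (1.42 ± 0.26), CTSD, a lysosomal protease (1.11 ± 0.23), and LAMP1, a lysosomal membrane protein (0.87 ± 0.16). Of 23 p53 targets 8 were higher and none lower, which became 5 without WA replicate 1, WN replicate 1 or WN replicate 3 and 4 without WA replicate 3. CDKN1A, the cell cycle inhibitor p21, was at 12.22, 12.15 and 12.48 with WA and at 11.10, 11.28 and 11.18 with WN (1.10 ± 0.22, adjusted p = 0.0020), with 0.64 at its other probe. The groups of CDKN1A did not overlap. TNFRSF10B, the death receptor DR5, differed by 1.10 ± 0.18.

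Immediate early genes were higher with WA at 24 h in 7 of 27 cases and lower in 2, with a median of 0.47 (0.12 under median scaling). Calls made up 33.3% of the list, beside 23.8% of all genes, and 12 were higher in a fit of the 9 IMR-32 arrays alone. ZFP36, which encodes an mRNA-destabilising protein, differed by 2.65 ± 0.37, FOS, a subunit of AP-1, by 2.32 ± 0.43, EGR1, a zinc finger factor, by 2.03 ± 0.55 and KLF2, a Krüppel-like factor, by 2.01 ± 0.33. EGR1 stood at 9.81, 10.06 and 9.93 with WA, at 7.92, 7.75 and 8.05 with WN and at 7.15, 7.17 and 7.30 with DMSO. The 3 groups of EGR1 did not overlap, and the WN minus DMSO difference of 0.70 missed the threshold (adjusted p = 0.53). Of 16 NF-kB targets 2 were higher and 2 lower, a share near that of all genes, and under median scaling 0 were higher and 4 lower. Of the 4, IRF1, NFKB2 and NFKBIB each lost the call under some alternative. BCL2L1, which encodes the survival protein BCL-XL, was at 10.02, 9.61 and 10.00 with WA, at 10.94, 10.93 and 10.81 with WN and at 10.28, 10.25 and 10.07 with DMSO. The WN arrays were the high ones: WA minus WN was -1.02 ± 0.16 (adjusted p = 2.9e-04), WN minus DMSO 0.69 (adjusted p = 0.022) and WA minus DMSO -0.33 (adjusted p = 0.19).

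Most of the DNA replication genes tested were lower with WA, and few of the mitosis genes were called. Of 36 replication genes tested 22 were lower and none higher, with a median of -0.74. The 22 are 61.1% of the list, beside 23.8% of all genes called. The count of lower genes was 14 without WA replicate 1, 13 without WA replicate 2 and 32 in a fit of the 9 IMR-32 arrays alone. The median member lay 0.63, 0.68 and 0.45 below its DMSO mean on the WA arrays and 0.05, 0.10 and 0.19 above it on the WN arrays. RRM2, a ribonucleotide reductase subunit, was at 9.32, 9.27 and 9.55 with WA against 10.56, 10.76 and 10.51 with WN (-1.23 ± 0.32, adjusted p = 0.011). CDC45 and MCM4 of the replicative helicase differed by -1.16 ± 0.27 and -1.09 ± 0.25, and the arrays of both compounds were apart for each of them. GINS4, another helicase subunit, was at 6.25, 6.44 and 6.56 with WA, at 7.80, 7.76 and 7.32 with WN and at 6.74, 6.86 and 6.63 with DMSO. In GINS4 the WN arrays were also above the DMSO arrays, by 0.88 (adjusted p = 0.0495, and 0.058 with the replicate block), while WA minus WN was -1.21 ± 0.24.

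Of 39 mitosis genes 1 was higher with WA, HMMR, a spindle protein gene (1.21 ± 0.42, adjusted p = 0.047), and 1 lower, MAD2L1 of the spindle checkpoint (-0.88 ± 0.28, adjusted p = 0.030). The median was 0.03, and 5.13% of the list was called, beside 23.8% of all genes. Both calls were lost whenever 1 WA or WN array was left out, and the other probe of MAD2L1 gave -0.03. In the fit of the 9 IMR-32 arrays alone 6 were higher and 5 lower, among them HMMR (adjusted p = 5.9e-04) and MAD2L1 (adjusted p = 4.0e-04). In SK-N-SH, 34 of the 39 were lower with WA than with WN and none higher. The test of the difference between the lines passed the threshold for 7 of the 39, all with the IMR-32 value above the SK-N-SH value, beside 494 of all genes (3.81%) in that direction.

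Of 29 ribosome biogenesis genes 13 were lower with WA and 1, NOP10, was higher, with a median of -0.40. Calls made up 48.3% of the ribosome list, beside 23.8% of all genes. The number of lower genes was 7 without WA replicate 1, WA replicate 2 or WN replicate 1, 8 without WN replicate 2 or 3 and 10 without WA replicate 3. DDX21, a nucleolar RNA helicase gene, was at 11.37, 11.14 and 11.19 with WA, at 12.20, 12.27 and 12.01 with WN and at 11.64, 11.44 and 11.67 with DMSO. All 3 groups were apart, with WA minus WN at -0.93 ± 0.14 (adjusted p = 2.6e-04) and WN minus DMSO at 0.58 (adjusted p = 0.030). BYSL (-0.81 ± 0.11) and UTP4 (-0.73 ± 0.13), processing factors of the small ribosomal subunit, were lower too. Of 18 MYC network genes 2 were higher, the MAX partners MXD4 (1.04 ± 0.17) and MXD1 (0.88 ± 0.16), and 3 lower, among them LDHA, lactate dehydrogenase (-0.82 ± 0.12), and ODC1, ornithine decarboxylase (-0.78 ± 0.14). Calls made up 27.8% of the MYC network list, near the 23.8% of all genes.

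MYCN itself stood at 14.30, 14.34 and 14.49 with WA, at 14.61, 14.75 and 14.75 with WN and at 14.62, 14.77 and 14.62 with DMSO. The WA arrays lay just below the others, and the difference from WN was not called (-0.32 ± 0.36, interval -1.08 to 0.43). In the fit of the 9 IMR-32 arrays alone the same difference was called (-0.32, adjusted p = 0.044), and the other probe gave -0.91.

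**Figure D3:**
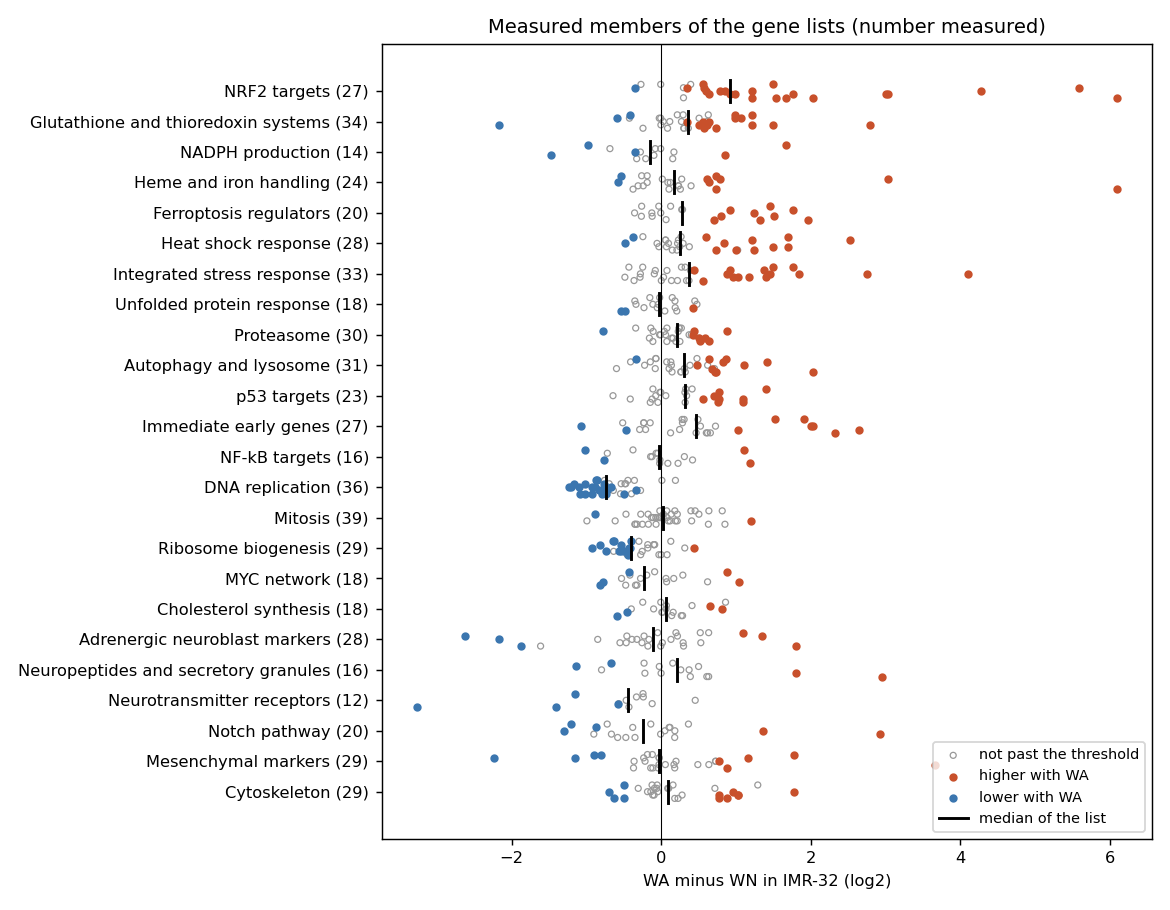
WA minus WN in IMR-32 (horizontal axis, log2) for each measured member of 24 gene lists, with the number measured in brackets. Filled points passed the threshold and the black bar is the median of the list: the NRF2 targets lie furthest to the right (median 0.92) and the DNA replication genes furthest to the left (-0.74).

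Of 28 adrenergic neuroblast markers 3 were higher and 3 lower with WA (6 and 7 in the fit of the 9 IMR-32 arrays alone), with a median of -0.10. This is 21.4% of the list, near the 23.8% of all genes. The higher ones were SCG2, described with the peptides, STMN2, a microtubule-binding protein gene of neurons (1.36 ± 0.41), and TH, tyrosine hydroxylase, which starts catecholamine synthesis (1.09 ± 0.26) and was detected on 1 of 3 WN arrays. DBH, dopamine beta-hydroxylase, which makes noradrenaline, was at 9.33, 8.78 and 9.46 with WA, at 11.68, 11.39 and 12.38 with WN and at 11.88, 11.69 and 12.40 with DMSO. The WA arrays were far below, and replicate 3 was the highest in each group (-2.63 ± 0.61, adjusted p = 0.0054). In the fit of the 9 IMR-32 arrays alone the standard error of DBH was 0.28. The zinc finger factor gene INSM1 was at 8.47, 8.32 and 9.09 with WA against 10.49, 10.78 and 11.10 with WN (-2.16 ± 0.29, adjusted p = 8.8e-05), and its relative INSM2 differed by -2.36 ± 0.56. The call of INSM2, whose WA level was detected on 2 of 3 arrays, was lost without background correction (-0.995, adjusted p = 0.13) and on the deposited series matrix values (-1.08, adjusted p = 0.10). ISL1, a core transcription factor of the adrenergic type, was at 9.84, 9.72 and 10.08 with WA against 11.56, 11.74 and 11.95 with WN (-1.87 ± 0.20, adjusted p = 9.3e-06), without overlap.

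Of 16 neuropeptide and secretory granule genes 2 were higher and 2 lower, a share near that of all genes. VGF, a granule peptide precursor, was at 13.38, 13.57 and 12.76 with WA against 10.18, 10.06 and 10.61 with WN (2.95 ± 0.27, adjusted p = 3.4e-06). SCG2, secretogranin II, was at 11.52, 11.81 and 11.51 with WA against 9.76, 9.67 and 9.98 with WN (1.81 ± 0.25, adjusted p = 1.0e-04). The arrays of both genes were fully apart. The neuropeptide galanin gene GAL was lower instead, at 11.10, 10.93 and 11.28 with WA against 12.27, 12.26 and 12.18 with WN (-1.13 ± 0.39, adjusted p = 0.043). The call of GAL was lost whenever 1 WA or WN array was left out, with the difference between -1.22 and -1.04. In the fit of the 9 IMR-32 arrays alone GAL was called (adjusted p = 1.4e-04).

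Of 12 neurotransmitter receptor genes 4 were lower and none higher with WA, with a median of -0.45. The 4 are 33.3% of the list, beside 23.8% of all genes called. HTR3A, a subunit of the ion channel for serotonin, was at 6.20, 5.97 and 6.41 with WA, at 9.28, 9.54 and 9.58 with WN and at 9.37, 9.25 and 9.25 with DMSO. WN and DMSO arrays overlapped and WA arrays lay 9.65-fold below those of WN in the mean (-3.27 ± 0.16, adjusted p = 2.3e-09, with -2.19 at the other probe). GABRA5, a GABA receptor subunit (-1.41 ± 0.14), GLRB, the beta subunit of the glycine receptor (-1.15 ± 0.19), and ADRA2A, an adrenergic receptor (-0.57 ± 0.15), were lower too, the last not without WN replicate 1 (-0.48). CNTNAP2, a neurexin-family adhesion protein gene, differed by -2.31 ± 0.40. SORBS2, which encodes an adaptor of the cytoskeleton, was at 5.36 or below with WA, where 1 of 3 arrays detected it, and at 7.11, 7.51 and 7.58 with WN (adjusted p = 2.3e-04).

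The chemokine CXCL12 and both of its receptors were lower with WA. CXCR4, the signalling receptor, was at 5.71, 5.20 and 5.26 with WA, at 9.13, 8.79 and 9.12 with WN and at 8.91, 8.50 and 9.08 with DMSO. The WA arrays were far below, by 12.3-fold in the mean from those of WN (-3.62 ± 0.53, adjusted p = 1.7e-04), and the other probe gave -3.60. CXCL12 was at 5.57, 5.52 and 5.52 with WA against 8.08, 8.18 and 7.73 with WN (-2.46 ± 0.21, adjusted p = 1.2e-06). ACKR3, the scavenging receptor, was not detected on any WA array and was at least 3.48-fold higher with WN (adjusted p = 5.3e-06). These 3 genes were named by the size of their difference and do not form a list fixed for this report.

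Some genes differed between the compounds from both sides of the solvent level. NEUROD2, a neuronal differentiation factor gene, was at 4.90, 5.21 and 4.58 with WA, at 7.58, 7.64 and 6.51 with WN and at 5.82, 5.97 and 5.62 with DMSO. The 3 groups did not overlap, with DMSO in the middle and 1 of 3 WA arrays above detection. WA minus WN was -2.35 ± 0.23 (adjusted p = 6.3e-06), WN minus DMSO 1.44 (adjusted p = 0.0050) and WA minus DMSO -0.91 (adjusted p = 0.015). VEGFD, a lymphatic growth factor gene, was at 6.39, 6.22 and 6.17 with WA, at 9.09, 9.34 and 9.05 with WN and at 8.50, 8.23 and 8.65 with DMSO. The order of the groups was the same, with WA minus WN at -2.90 ± 0.14 (adjusted p = 2.3e-09) and WN minus DMSO at 0.70 (adjusted p = 0.015).

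Notch pathway genes had 2 higher and 3 lower members among 20, which is 25% of the list, near the 23.8% of all genes. HEY1, a transcriptional repressor induced by Notch, was at 10.01, 9.96 and 8.82 with WA against 6.55, 6.66 and 6.81 with WN (2.92 ± 0.27, adjusted p = 4.1e-06), with 1.84 at the other probe. HES1, a repressor of the same family, was detected on 1 of 3 WN arrays and differed by 1.36 ± 0.32, a call lost under median scaling (0.89, adjusted p = 0.060). The inhibitory ligand DLL3 (-1.21 ± 0.20) and the Notch-modifying LFNG (-1.30 ± 0.35) were lower. Other probes of LFNG gave -0.42 and 0.26, and its call was lost without WA replicate 2 or WN replicate 3. CEBPD, a C/EBP transcription factor gene, was at 6.24, 5.85 and 5.95 with WA against 8.68, 8.58 and 8.83 with WN (-2.68 ± 0.61, adjusted p = 0.0048). Its standard error was 0.17 in the fit of the 9 IMR-32 arrays alone. SPRY1, an inhibitor of growth factor signalling, was not detected on any WA array and was at least 4.51-fold higher with WN (adjusted p = 0.0086). That call was lost without background correction (-0.94, adjusted p = 0.18) and on the deposited series matrix values (-1.03, adjusted p = 0.15).

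Mesenchymal and cytoskeletal genes gave mixed calls. Of 29 mesenchymal markers 5 were higher and 4 lower with WA, with 3 and 2 higher without WA replicates 1 and 2. Calls made up 31% of the mesenchymal list, beside 23.8% of all genes. ANXA1, a phospholipid-binding annexin, was at 8.83, 8.66 and 6.49 with WA and was not detected on any WN or DMSO array, which makes it at least 6.97-fold higher. The bound ran from 5.22 to 11.7 when 1 array was left out, and WA replicate 3 was the low one (adjusted p = 2.3e-05). ACTA2, smooth muscle actin, was at 9.11, 8.98 and 8.96 with WA against 7.19, 7.19 and 7.34 with WN (1.78 ± 0.20, adjusted p = 2.1e-05). SNAI2, a transcription factor of mesenchymal transition, was at 10.77, 10.89 and 9.81 with WA, at 9.51, 9.60 and 8.86 with WN and at 8.82, 9.13 and 7.46 with DMSO. Replicate 3 was low in all groups of SNAI2, and the difference of 1.17 ± 0.36 (adjusted p = 0.026) was not called without WA replicate 1 or 2 or WN replicate 3, nor in the fit of the 9 IMR-32 arrays alone (adjusted p = 0.057). LOX, lysyl oxidase, was not detected on any WA array and was at least 3.53-fold higher with WN (adjusted p = 6.2e-05). VIM, vimentin, was at 13.88, 13.87 and 13.20 with WA and at 13.77, 13.63 and 13.01 with WN, with overlapping groups and an interval from -0.32 to 0.69. The summed mesenchymal level given above was lower on the WN than on the WA arrays with an overlap, and its part in these values was not tested.

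Of 29 cytoskeleton genes 7 were higher, among them NES, nestin (1.03 ± 0.24), and LMNA, lamin A (0.96 ± 0.15), and 4 were lower. Calls made up 37.9% of the cytoskeleton list, beside 23.8% of all genes. Of 7 metallothioneins MT2A was called (0.87 ± 0.21), not so without background correction (0.32) or on the deposited series matrix values (0.36), and the median of that list moved from -0.03 to -0.53 under median scaling. Of 18 cholesterol synthesis genes 2 were higher, PMVK (0.81 ± 0.13) and CYP51A1 (0.65 ± 0.16), and 2 lower, DHCR7 (-0.60 ± 0.17) and SQLE (-0.45 ± 0.15). Calls made up 22.2% of that list, near the 23.8% of all genes. DHCR7 was not called without WA or WN replicate 2, and SQLE was called in 1 of 6 fits that left out a WA or WN array, the one without WN replicate 1. Of the 4 immune cell markers tested CD14 (0.88 ± 0.23) and CD68 (0.75 ± 0.20) were higher with WA, and none of the 4 Schwann cell markers tested was called. CD14 was not called under median scaling (0.39) or without WA or WN replicate 1 (0.67 and 0.68), and CD68 was not called with the probes averaged (0.38) or without WA replicate 2 (0.59). The summed immune level was 8.20 to 8.42 on the WN arrays, 8.68 to 9.04 on the WA arrays and 8.66 to 8.94 on the DMSO arrays.

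Some short noncoding transcripts differed widely between the compounds. RNA5S9, a 5S ribosomal RNA, was at 11.47, 11.50 and 12.06 with WA, at 8.21, 8.02 and 8.00 with WN and at 8.71, 8.62 and 9.40 with DMSO. RN7SK, which holds the elongation factor P-TEFb inactive, was at 11.56, 11.36 and 12.28 with WA, at 8.58, 8.40 and 8.39 with WN and at 9.04, 8.95 and 9.84 with DMSO. WN arrays were lowest and WA arrays highest in both, with DMSO between. WA minus WN was 3.60 ± 0.30 for RNA5S9 (adjusted p = 1.2e-06) and 3.28 ± 0.33 for RN7SK (adjusted p = 6.7e-06), the latter with 4.52 at the other probe. The WA arrays were the ones far from DMSO, by 2.77 and 2.46, while WN minus DMSO was -0.83 (adjusted p = 0.13) for RNA5S9 and -0.82 (adjusted p = 0.16) for RN7SK.

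The 13 tested genes that RefSeq types as snRNA, RN7SK among them, were then described together, a set chosen after these values were seen. Of the 13, 11 were higher with WA than with WN and none lower, with a median of 1.98, beside 12.6% of all genes higher. With WN against DMSO 8 were lower and none higher (median -1.03), beside 2.21% of all genes lower in that comparison. The median member lay 1.00, 1.23 and 0.80 below its DMSO mean on the WN arrays and 1.01, 0.61 and 1.29 above it on the WA arrays, while the DMSO arrays themselves ran from -0.33 to 0.51. RNU6-1, the U6 RNA of the spliceosome, stood at 12.40, 12.27 and 12.50 with WA, at 10.77, 10.58 and 10.64 with WN and at 11.11, 10.94 and 11.56 with DMSO. RNU11, an RNA of the minor spliceosome, was at 6.57, 6.52 and 7.23 with WA, at 5.48, 5.17 and 5.67 with WN and at 6.76, 5.91 and 6.54 with DMSO. WA and DMSO overlapped in RNU11 but not in RNU6-1, and WN was the lowest group in both. Of 46 clustered histone genes, whose main transcripts also lack a poly(A) tail, 20 were higher and 2 lower with WA than with WN, with a median of 0.43. With WN against DMSO 11 of these histone genes were lower and none higher (median -0.42), which became 17 with the replicate block. The 141 snoRNA genes showed less: 32 were higher and 9 lower with WA than with WN, with a median of 0.14, and WN replicate 3, whose median member lay 0.02 below its DMSO mean, was above all WA arrays (-0.10 to -0.09). The U1 genes among the 13 snRNA genes share most of their sequence, so they are not separate readings. Most mature RNAs of this kind carry no poly(A) tail, and the recovery of short RNAs in extraction or labelling, like the dim WN arrays, was not tested as a part of these values.

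**Figure D4:**
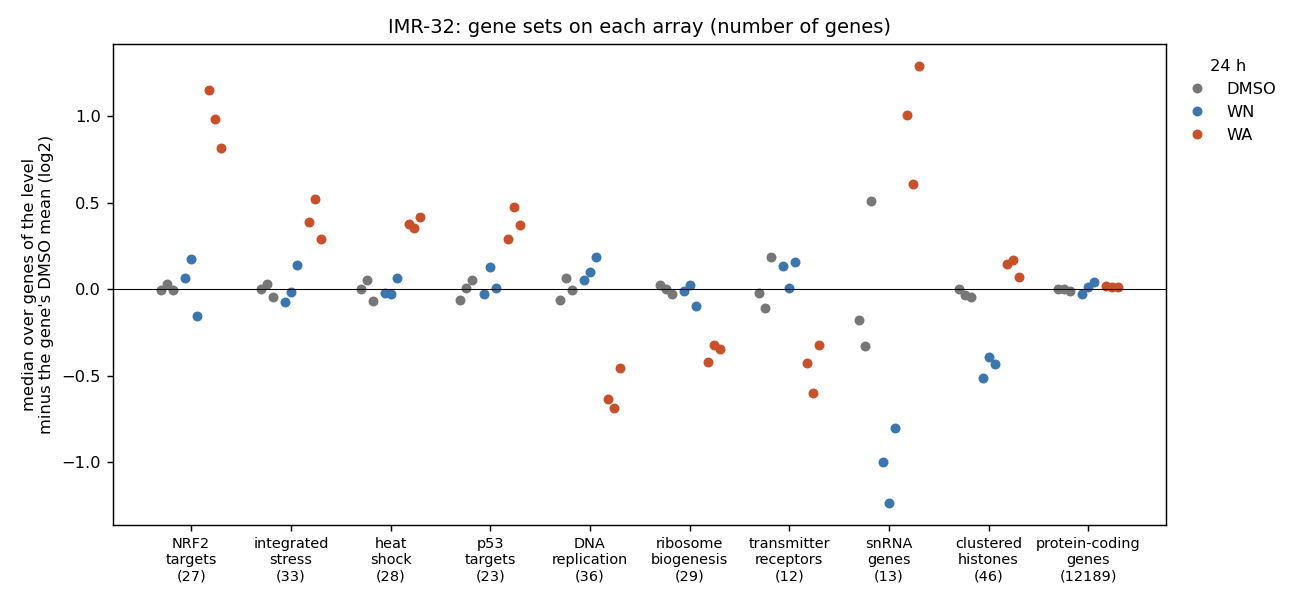
Median over the genes of a set of the level on an array minus the gene's own mean over the 3 DMSO arrays (vertical axis, log2), for 10 sets and each IMR-32 array. WA arrays lie away from the DMSO level for NRF2 targets (0.82 to 1.15) and DNA replication genes (-0.68 to -0.45). For snRNA genes the WN arrays lie below DMSO (-1.23 to -0.80) and the WA arrays above it (0.61 to 1.29). For clustered histone genes the WN arrays lie below DMSO (-0.51 to -0.39).

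The same contrast was read in SK-N-SH to see where IMR-32 differed. In SK-N-SH 4979 genes (38.4%) were called between WA and WN, 20.7% of all genes being higher and 17.7% lower with WA. Across the 12975 genes, which are not independent replicates, the WA minus WN difference of one line correlated with that of the other at a Pearson r of 0.53 and a Spearman rho of 0.53, from separate arrays. HMOX1 differed by 7.45 in SK-N-SH and by 6.10 in IMR-32, and the test of the difference between the lines missed the threshold (-1.35 ± 0.45, adjusted p = 0.070). GDF15 differed by 4.44 in SK-N-SH and by 4.10 here, and the interval of the line difference ran from -1.93 to 1.25 (adjusted p = 0.83), too wide to show that the lines act alike. The line difference was called for 1162 genes (8.96%), 494 with the value of IMR-32 above and 668 with it below that of SK-N-SH. That count was 2404 without WA replicate 1 of SK-N-SH and 681 to 1241 without any other array of these groups, fewest without WN replicate 2 of SK-N-SH.

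WA minus WN for AKR1C3 and AKR1C2 was 5.59 and 4.28 in IMR-32, and the SK-N-SH values were 1.70 and 0.64, a line difference of 3.89 ± 0.53 (adjusted p = 4.5e-04) and 3.64 ± 0.44 (adjusted p = 2.5e-04). HEY1 gave 2.92 here and -0.22 in SK-N-SH (line difference 3.15 ± 0.39, adjusted p = 2.9e-04). Among the genes lower with WA, HTR3A gave -3.27 here and 0.02 in SK-N-SH (-3.29 ± 0.23, adjusted p = 6.2e-07). The HTR3A probe in use was not detected on any SK-N-SH array, so that 0.02 is a difference at background. Another probe of the gene was detected in SK-N-SH with WN. VEGFD gave -2.90 and 0.59 (-3.49 ± 0.20, adjusted p = 8.5e-08), but in SK-N-SH it was detected on the WA arrays alone. CEBPD gave -2.68 and 1.19 (-3.87 ± 0.86, adjusted p = 0.012), with every array of both lines above detection. The integrated stress genes went the other way: for 21 of the 33 the WA minus WN difference was smaller in IMR-32 than in SK-N-SH past the threshold, beside 5.15% of all genes. SLC3A2, an integrated stress gene, gave 1.45 and 3.35 (-1.90 ± 0.34, adjusted p = 0.0028). MYCN gave -0.32 here and -3.34 in SK-N-SH, which is known to lack the amplification and in which no WA array detected the gene (3.02 ± 0.50, adjusted p = 0.0020).

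**Figure D5:**
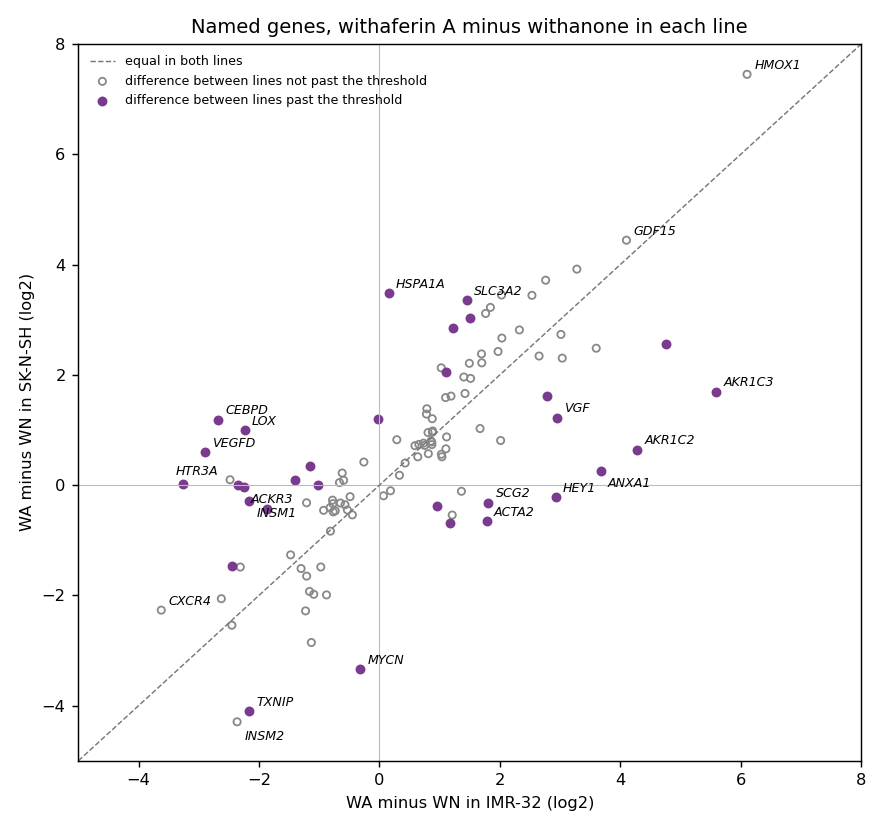
WA minus WN in IMR-32 (horizontal axis, log2) against WA minus WN in SK-N-SH (vertical axis, log2) for the 115 genes chosen by the naming rule, most of them for their size in IMR-32. Filled points passed the test of the difference between the lines: AKR1C3, AKR1C2, ANXA1 and HEY1 lie to the right of the dashed line of equal values, and HTR3A, VEGFD and CEBPD to its left.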

How the data were processed

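The authors deposited 1 bead signal intensity per probe and array, not normalized between arrays, and a detection p-value for each, per the file headers. The deposited series matrix holds log2 values (median 6.87 on every array) that were quantile normalized, and limma is named without a version in the submitters' processing notes; the scanner software is not given in the sources used here. Of 47224 probes 2 with missing values were left out. On the 6 WN arrays 66.5 to 68.0% of the deposited detection p-values followed that array's own signals within 0.02, against 99.987% or more on each other array, so those of the WN arrays were rederived from their signals.

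Intensities were processed with neqc of limma 3.58.1 (R 4.3.3), that is normexp background correction, an offset of 16, quantile normalization and log2. Probes with a detection p under 0.01 on at least 3 of 18 arrays were kept (23320), and a gene was read by its brightest kept probe with 1 symbol in the platform annotation, updated through RefSeq (30107 probes with 1 symbol, 8 with several, 17107 with none). One limma model over all 18 arrays gave every difference, its standard error, a 95% interval and an adjusted p (Benjamini-Hochberg over 12975 genes), and the code was tested on simulated data. The number of arrays limits the precision. Python 3.11.15, pandas 2.3.3 and matplotlib 3.10.9 were used for tables and figures.

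The 115 genes named by rule were the 12 with the largest difference in each direction, up to 4 called members per list (2 if none was called) and 12 fixed genes; other list members and the short RNAs were named after their values were seen. The members, the 27 lists and the rule were chosen with earlier results of these data known. Same-numbered arrays deviated together for WA and DMSO (r = 0.248, 0.193 and 0.299) and for WN and DMSO (r = 0.163, 0.172 and 0.341), from the replicate numbers in the titles and these correlations. Alternatives covered the arrays in the fit, the replicate block, background correction, scaling, the series matrix, probe filters, detection p-values, probe averaging, array weights, the variance prior and single arrays left out.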

Additional observations from a re-analysis of the deposited data

Results flagged for a closer look

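The difference between WA and WN itself differed between IMR-32 and SK-N-SH for 1162 genes by the interaction term of the limma model. The values that follow are the IMR-32 difference minus the SK-N-SH difference on the log2 scale, each with an adjusted p under 0.05, and no explanation of them was tested.

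Among stress genes the value was positive for AKR1C3 (3.89), AKR1C2 (3.64), AKR1C4 (2.19), GPX3 (1.17) and TXNIP (1.94), the last of which was lower with WA in IMR-32 by -2.16 and in SK-N-SH by -4.10. It was negative for SLC3A2 (-1.90), GCLM (-1.62), SRXN1 (-1.52), TNFRSF10B (-0.95), BCL2L1 (-1.02), NFE2L2 (-1.22) and HSPA1A (-3.33). HSPA1A was not detected on any IMR-32 array, so its value there has no level behind it.

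Among neural and structural genes the value was positive for ANXA1 (3.41), HEY1 (3.15), MYCN (3.02), ACTA2 (2.43), SCG2 (2.12), SNAI2 (1.85), VGF (1.73) and LMNA (1.33). It was negative for CEBPD (-3.87), VEGFD (-3.49), HTR3A (-3.29), LOX (-3.23), NEUROD2 (-2.35), ACKR3 (-2.23), INSM1 (-1.88), GABRA5 (-1.51), GLRB (-1.50), ISL1 (-1.44) and CXCL12 (-0.98). Some of these values set a level against background. By the probe in use, HTR3A, NEUROD2, ACKR3 and GABRA5 were not detected on any SK-N-SH array. VEGFD was detected in SK-N-SH with WA alone and MYCN not with WA. In IMR-32, AKR1C4 and ANXA1 were not detected with WN, and LOX and ACKR3 not with WA.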

How the results depend on the processing

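Of the alternatives other than leaving out 1 array, array weights moved the counts of calls most: 5678 genes between WA and WN (2912 higher and 2766 lower), 3922 for WA against DMSO, 3160 for WN against DMSO and 3038 for the line difference. Median scaling gave 2269 lower genes between WA and WN. For WN against DMSO the 9 IMR-32 arrays alone gave 1117 calls, no background correction 937 and the deposited series matrix values 918. Same-numbered WA and WN arrays of IMR-32 correlated at 0.0656, 0.155 and 0.276 in their deviations from the group means. Differently numbered ones ran from -0.214 to 0.108. The main fit did not hold the replicate number, and these values do not show that the arrays are unpaired. With the replicate block there were 3887 calls between WA and WN, 987 for WN against DMSO and 2171 for the line difference. Leaving out 1 array gave 1998 to 2670 calls between WA and WN, 1095 to 1474 higher and 903 to 1246 lower, with the fewest without WA replicate 2. It gave 1132 to 1601 for WA against DMSO, 132 to 515 for WN against DMSO and 681 to 2404 for the line difference. The cause of these shifts was not tested. Over the named genes and alternatives, 1843 values kept their direction and side of the threshold, 99 lost the threshold, 7 gained it and 6 turned sign. The last were of genes that were not called: CNP (-0.15) and HSPA1A (-0.45) under median scaling, and GPX4 (-0.052 to 0.174), NFE2L2 (-0.093 to 0.0063) and VIM (-0.046 to 0.408) over the arrays left out. Of the calls made between WA and WN, 21 had the opposite sign under median scaling and 8 with the probes of a gene averaged. The comparison rests on 3 arrays per compound, 1 dose and 1 time point.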
